A study of Mus musculus with 6 samples.

Results

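The respiratory chain genes of mouse osteoblasts killed with ultraviolet light were described from RNA sequencing of 3 libraries of old and 3 libraries of young mice. Members were chosen by symbol alone: the nuclear Nduf, Sdh, Uqcr, Cox and Atp5 subunits and the 13 protein-coding genes of mitochondrial DNA. Of 29587 gene rows, 95 matched, 82 of them nuclear and 13 mitochondrial, and 6 further rows named as pseudogenes were left out. The symbol rule also takes in Atp5s and Atp5sl, which are not built into the ATP synthase.

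Both groups were prepared alike and carried no stated mutation, and the exact ages are not given in the labels. Cells growing out of bone fragments were passaged 3 times, kept in osteogenic medium for 3 days and exposed to ultraviolet light for 0.5 h, after which over 90% took up trypan blue. The RNA is therefore that of a cultured, dying population and not of osteoblasts in bone. Whether the 3 libraries of each group stem from different animals or from different dishes is not stated, so p-values may reflect technical spread only.

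The respiratory chain passes electrons from NADH and succinate to oxygen through complexes I to IV and uses the resulting proton gradient to make ATP at complex V. Nuclear genes supply most subunits, which are translated in the cytosol and imported. Mitochondrial DNA encodes core subunits of complexes I, III, IV and V, so each of these 4 complexes needs transcripts from both genomes, while complex II is wholly nuclear. Differentiating osteoblasts draw on both glycolysis and oxidative phosphorylation.

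Depth was 64881180 to 84535939 reads per library, recovered from the deposited RPKM (reads per kilobase of gene, scaled to the depth of the library). Young replicate 1 stood apart from the other young libraries. Its reads differed from those of young replicates 2 and 3 by a chi-square of 482.6 and 381.2 per degree of freedom, against 9.51 to 23.6 between the other libraries of 1 group. Cytosolic ribosomal protein genes summed to 54211, 54014 and 50553 RPKM in old replicates 1 to 3, against 72801, 39466 and 43593 RPKM in young replicates 1 to 3. The counts below are given with and without young replicate 1. That library was singled out from these same values, so p-values without it follow a choice made on the data. Over all genes, leaving it out raised the calls from 177 higher and 12 lower in old to 1589 and 2329. Genes said below to rise or fall without it were called in that fit, which is no independent result on age. Of 9 osteoblast markers 7 passed the expression filter. The summed markers of endothelial, adipocyte and erythroid cells lay under 0.2 RPKM in every library, and of the macrophage markers found in the table only Lyz2 passed. Among osteoblast markers the secreted matrix protein Spp1 was higher in old (adjusted p = 0.0307, limma) and the transcription factor Sp7 was lower (adjusted p = 0.0186, limma). Of the 7 tested osteoblast markers, 5 were lower and 1 was higher without young replicate 1, beside 19.4% and 13.2% of all tested genes, with a median log2 fold change of -0.42; their part in the results below was not tested.

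Several mitochondrial genes have a copy of near-identical sequence in the nuclear genome, and the sequences are shown first because reads inside identical stretches cannot be placed by sequence alone. A block of copies lies on the minus strand of chromosome 1 (chr1:24611535-24616197, GRCm38) and is annotated by GENCODE as unprocessed pseudogenes. The first 60 bases of mt-Atp6, which encodes a proton channel subunit of complex V, and of its copy Gm10925 read the same from 5′ to 3′.
mt-Atp6, chrM:7927-7986, plus strand: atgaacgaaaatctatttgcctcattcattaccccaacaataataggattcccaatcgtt
Gm10925, chr1:24614592-24614651, minus strand: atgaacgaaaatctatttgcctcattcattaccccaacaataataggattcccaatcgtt
The same held for mt-Co3, a core subunit of complex IV, and Gm28437.
mt-Co3, chrM:8607-8666, plus strand: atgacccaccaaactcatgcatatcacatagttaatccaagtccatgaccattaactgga
Gm28437, chr1:24613912-24613971, minus strand: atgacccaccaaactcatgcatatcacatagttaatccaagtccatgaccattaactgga
A single base separates mt-Nd3, a membrane subunit of complex I, from Gm28438 over their aligned length, and a capital marks it.
mt-Nd3, chrM:9459-9518, plus strand: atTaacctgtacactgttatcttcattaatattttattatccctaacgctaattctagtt
Gm28438, chr1:24613060-24613119, minus strand: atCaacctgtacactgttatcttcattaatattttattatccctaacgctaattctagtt
A single base likewise separates mt-Co1, the catalytic core of complex IV, from Gm29216, and the stretch around it is shown.
mt-Co1, chrM:6390-6449, plus strand: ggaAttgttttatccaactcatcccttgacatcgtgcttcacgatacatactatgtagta
Gm29216, chr1:24616129-24616188, minus strand: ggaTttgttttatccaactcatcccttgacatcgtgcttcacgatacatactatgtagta

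Over the whole aligned length, 678 of 678 bases were identical for mt-Atp6 and Gm10925, 681 of 681 for mt-Co2 and Gm28661, and 783 of 783 for mt-Co3 and Gm28437. The mt-Nd4l copy Gm10222 was identical at 294 of 294 bases, and Gm28439 at 876 of 876 bases of mt-Nd4. The mt-Nd3 copy matched at 344 of 345 bases, and the mt-Co1 copy, which covers part of the gene, at 482 of 483. A read that lies inside an identical stretch cannot be assigned to 1 of the 2 places by its sequence.

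The identical copies carried the reads in 3 cases and lacked them in the others. mt-Atp6 stood at 0.730, 0.876 and 1.35 RPKM in old replicates 1 to 3, against 0.226, 1.74 and 1.98 RPKM in young replicates 1 to 3. Its copy Gm10925 averaged 9953 ± 219 RPKM in old and 8272 ± 2456 RPKM in young (SD, n = 3 each). The mt-Co2 copy Gm28661 averaged 4700 ± 369 RPKM in old and 4962 ± 1143 RPKM in young, and mt-Co2 itself, which encodes the subunit that receives electrons from cytochrome c, 0.329 ± 0.128 and 0.454 ± 0.239 RPKM (SD, n = 3 each, old and young in that order). In both pairs nearly every read was listed under the chromosome 1 symbol, in all 6 libraries.

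mt-Co3 had the same split, with its copy Gm28437 at 2442 ± 60.1 RPKM in old and 2370 ± 328 RPKM in young (SD, n = 3 each). The mt-Co3 row itself held 0.540 ± 0.0309 RPKM in old and 0.765 ± 0.164 RPKM in young (SD, n = 3 each). Of the reads on each of these 3 pairs, 99.95% or more lay on chromosome 1 in every library. For mt-Nd3 the copy held 33.9 to 35.9% of the pair's reads in old and 28.2 to 39.1% in young, and for mt-Co1 9.80 to 10.1% in old and 6.68 to 23.95% in young. For mt-Nd4l and mt-Nd4, whose copies are just as identical, the copy held at most 0.315% in old and 1.16% in young. How reads with more than 1 equally good place were assigned is not given in the sources used here, so the rows cannot tell transcripts of the 2 genomes apart where the sequence is identical.

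**Figure D1:**
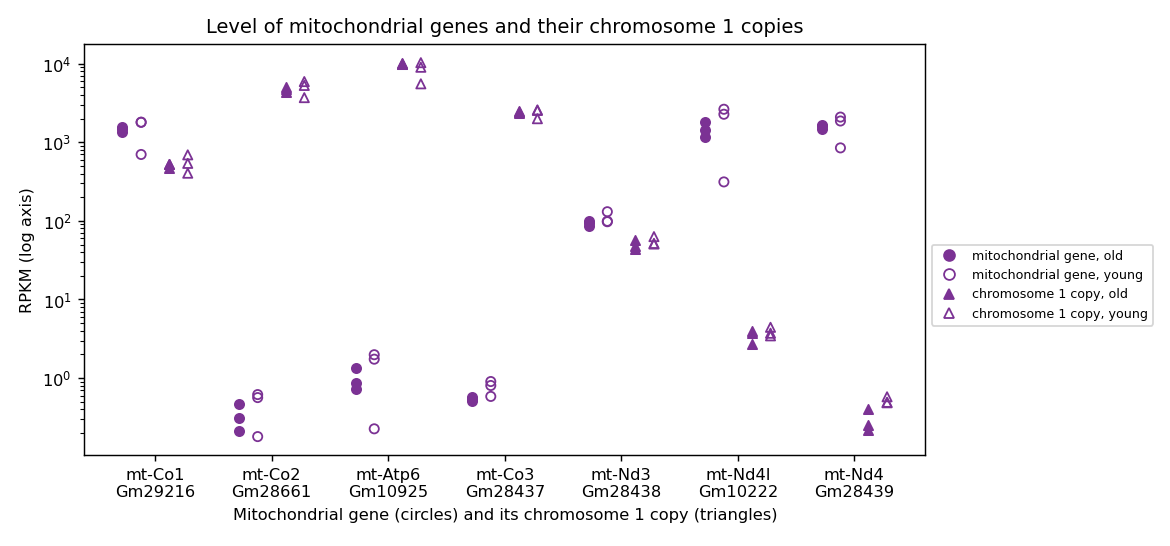
Level in RPKM (log axis) of 7 mitochondrial genes (circles) and their chromosome 1 copies (triangles), 3 old libraries (filled, left) and 3 young libraries (open, right) per gene. The mt-Co2, mt-Atp6 and mt-Co3 rows lie near or under 2 RPKM while their copies lie between 1992 and 10285 RPKM, and mt-Nd4l and mt-Nd4 show the opposite.

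The mt-Atp8 row, a small complex V gene that overlaps mt-Atp6 (chrM:7766-7969), held 0.928, 0.455 and 1.70 RPKM in old and 0.151, 2.21 and 3.07 RPKM in young. Mean levels of the other mitochondrial rows spanned 101 to 3878 RPKM. mt-Cytb, the catalytic subunit of complex III, had the highest mean of the 13 rows, at 4129 ± 202 RPKM in old and 3627 ± 1641 RPKM in young (SD, n = 3 each). The complex I subunit mt-Nd2 followed at 2499 ± 351 RPKM in old and 2931 ± 968 RPKM in young, then mt-Nd6 at 2364 ± 367 and 2766 ± 292 RPKM (SD, n = 3 each, old and young in that order). mt-Cytb was above both in every library but young replicate 1. Likewise mt-Nd2 was above mt-Nd6 in every library but that one, by small margins in old. mt-Nd6 is the only one of the 13 on the light strand, and whether counting used strand is not given in the sources used here, so antisense transcripts of the other strand may be included in its row.

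No mitochondrial gene passed the test of old against young, fitted with limma over 12015 tested genes. Of the 13 genes, 11 passed the filter of at least 1 RPKM in at least 3 libraries, and 0 of them were called in either direction at an adjusted p under 0.05, beside 1.47% of all tested genes called higher and 0.0999% called lower. At an unadjusted p under 0.05 the count was also 0 of 11, against 11.2% of all genes, and limma's voom on recovered reads called 0 as well, beside 1.35% of all genes higher and 0.0666% lower. The median log2 fold change was -0.13 in these 11 genes and 0.01 over all tested genes, with a range of -0.37 to 0.32. In bulk RNA, fewer cells of a type and less RNA per cell cannot be told apart.

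The spread between libraries was wide in most of these genes. mt-Nd1, the complex I subunit where the membrane arm meets the peripheral arm and the mitochondrial gene of smallest p, had 1980.0, 1855 and 2002 RPKM in old replicates 1 to 3, against 1899, 2739 and 3063 RPKM in young replicates 1 to 3. Its log2 fold change was -0.37 ± 0.20 (SE, limma adjusted p = 0.630). The old libraries lay beside young replicate 1 and below young replicates 2 and 3.

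mt-Cytb had 3990.5, 4037 and 4361 RPKM in old replicates 1 to 3, against 1756, 4297 and 4826 RPKM in young replicates 1 to 3. mt-Nd4l, a small membrane subunit of complex I, spread further, at 1418, 1171 and 1789.8 RPKM in old and 313, 2629 and 2271 RPKM in young. mt-Co1 had 1484, 1365 and 1545 RPKM in old and 699, 1798 and 1796 RPKM in young. In all 3 genes young replicate 1 was the lowest of the 6 libraries, by a wide margin in mt-Nd4l, and the old libraries lay between it and the other young libraries except for 1 old library in mt-Cytb.

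The remaining complex I subunits repeated the order in part. mt-Nd2 had 2315, 2278 and 2904 RPKM in old and 1877, 3139 and 3779 RPKM in young, and its old libraries lay between. mt-Nd4 and mt-Nd5, proton-pumping subunits of complex I, had 1614, 1475 and 1668 RPKM and 867, 758 and 1018 RPKM in old, against 848, 1863 and 2089.6 RPKM and 463, 1308 and 1193 RPKM in young. mt-Nd3 was flatter, at 92.6, 85.6 and 100.4 RPKM in old and 97.5, 98.8 and 130.7 RPKM in young, and mt-Nd6 had 2110.4, 2195 and 2785 RPKM in old and 2440.2, 2852 and 3005 RPKM in young. Both mt-Nd3 and mt-Nd6 had overlapping groups, and young replicate 1 was not the lowest library in either.

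Young replicate 1 was the lowest of the 6 libraries in 8 of the 11 tested mitochondrial genes, beside 48.2% of all tested genes. The median difference from young replicates 2 and 3 was -1.22 on the log2(RPKM + 1) scale, against -0.14 over all genes. In 7 of the 11 genes all 3 old libraries lay above young replicate 1 and below both other young libraries, an order found in 24.5% of all tested genes. The old libraries were below young replicates 2 and 3 without overlap in 9 of 11, beside 38.8% of all genes.

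Without young replicate 1, 8 of the 11 mitochondrial genes were called lower in old and 0 higher, beside 19.4% and 13.2% of all tested genes. The median log2 fold change was then -0.47. mt-Nd1 had the smallest adjusted p, 0.00444 (limma), and its log2 fold change was -0.57 ± 0.08 (SE), and it was lower in 3 of 3 old libraries than in either young library. mt-Nd4l fell by 0.76 and mt-Co1 by 0.30 on the log2 scale (limma adjusted p = 0.0192 and 0.0244), and mt-Nd2, mt-Nd4, mt-Nd5, mt-Atp6 and mt-Atp8 also fell. mt-Cytb, mt-Nd3 and mt-Nd6 did not pass, at -0.14, -0.29 and -0.32. mt-Atp6 and mt-Atp8 had at most 112 reads in any library.

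When the reads of each chromosome 1 copy were added to its mitochondrial gene, an alternative chosen after the data were seen, all 13 genes passed the filter. None of the 13 was called with all 6 libraries (smallest limma adjusted p = 0.630, with 0 of 13 under an unadjusted 0.05). mt-Atp6 then stood at 10160.4, 9758 and 9812 RPKM in old replicates 1 to 3, against 5511, 8959 and 10241 RPKM in young replicates 1 to 3. Its log2 fold change turned to 0.31 ± 0.25 (SE, limma adjusted p = 0.827), against -0.13 ± 0.35 (SE, limma adjusted p = 0.978) for the row as deposited. Without young replicate 1, 7 of the 13 fell and 0 rose, beside 19.4% of all tested genes lower and 13.2% higher. The 3 genes whose reads lay on chromosome 1 were not among them, with log2 fold changes of -0.25 in mt-Co2, 0.05 in mt-Atp6 and -0.07 in mt-Co3 (limma adjusted p = 0.0852, 0.694 and 0.422). Among the 7 was mt-Atp8, which was paired with no copy row. Its deposited row of 2 to 52 reads per library was used unchanged. On mitochondrial DNA mt-Atp8 lies between mt-Co2 and the start of mt-Atp6. Their copies Gm28661 and Gm10925 have between them a stretch of the chromosome 1 block that belongs to neither row. That stretch was not compared with mt-Atp8, so whether reads of mt-Atp8 were placed there was not tested. Its level and fold change may therefore be those of a small part of its reads.

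No nuclear subunit passed either. Of 82 nuclear genes, 76 passed the filter, and 0 were called higher and 0 lower, beside the 1.47% and 0.0999% of all tested genes. The median log2 fold change was 0.04, with a range of -0.42 to 0.25, and 44 of 76 were positive. At an unadjusted p under 0.05 there was 1 gene, Atp5s, against 11.2% of all genes, and voom on recovered reads called 0. The 3 old libraries were all above the 3 young libraries in 5 tested genes, beside 10.6% of all genes, and all below in 1, beside 10.2%. The 5 genes, chosen for naming after their values were seen, were the complex V subunits Atp5b and Atp5j, the complex III core proteins Uqcrc1 and Uqcrc2, and the complex IV subunit Cox8a.

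**Figure D2:**
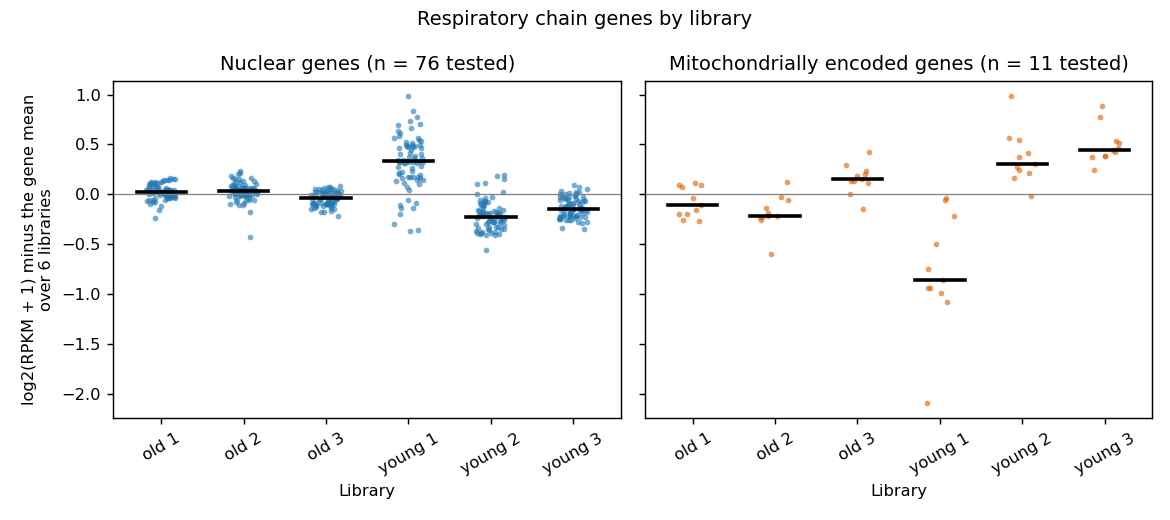
log2(RPKM + 1) of each tested gene minus its mean over the 6 libraries, for 76 nuclear genes (left panel) and 11 mitochondrial genes (right panel), with old libraries left of young. Each point is 1 gene and each black line the median of a library; young replicate 1 is the highest library at the nuclear median and the lowest at the mitochondrial one, with the old libraries between it and young replicates 2 and 3.

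Complex I, the NADH dehydrogenase, had 35 nuclear members and all passed the filter. Their summed level was 2613, 2598 and 2497 RPKM in old replicates 1 to 3, against 3180, 2151 and 2311 RPKM in young replicates 1 to 3. The accessory subunit Ndufa12 (chr10:94198955-94221443, plus strand) was the most abundant, at 481, 493 and 480.0 RPKM in old and 547, 415 and 452 RPKM in young. The old libraries lay within the range of the young. Part of the Ndufa12 sequence, 14.6% of its 75-base stretches, also occurs in the predicted gene Gm15920, so some of its reads may be shared.

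Ndufv3, a small subunit of the NADH-binding module, had the smallest p in complex I. It had 100.3, 92.9 and 91.1 RPKM in old and 93.4, 76.7 and 88.8 RPKM in young, and its log2 fold change was 0.14 ± 0.11 (SE, limma adjusted p = 0.817). The groups overlapped. Mean levels of the 35 genes spanned 4.53 to 478 RPKM with a median of 46.1, so genes whose proteins are built into 1 complex differed widely per length in their transcripts. The deposited gene length exceeded 2 times the length of the coding transcript in 34 of the 82 nuclear genes, and levels of such genes may be understated.

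Complex II, succinate dehydrogenase, links the citric acid cycle to the chain. Sdha (chr13:74322254-74350280, minus strand), the flavoprotein that oxidises succinate, had 22.1, 20.6 and 22.1 RPKM in old replicates 1 to 3, against 20.5, 24.7 and 22.5 RPKM in young replicates 1 to 3. Its partner Sdhb, the iron-sulphur subunit, had 13.4, 14.1 and 13.5 RPKM in old and 20.9, 10.8 and 11.8 RPKM in young. Young replicate 1 was the highest library for Sdhb. For Sdha it was the lowest, but at 20.5 RPKM it lay beside the 20.6 RPKM of old replicate 2.

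The membrane anchors followed Sdhb. Sdhc had 25.1, 28.0 and 24.1 RPKM in old and 41.3, 21.5 and 23.2 RPKM in young. Sdhd had 25.3, 23.3 and 22.8 RPKM in old and 42.8, 18.5 and 20.5 RPKM in young. For both anchors all old libraries lay between young replicate 1 and the other young libraries. Adjusted p-values of the 4 genes were 0.965 to 0.995 (limma).

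Complex III, the cytochrome bc1 complex, had 8 nuclear members by the symbol rule. Uqcrh, the hinge protein next to cytochrome c1, was the most abundant, at 278, 281 and 293 RPKM in old and 401, 275 and 303 RPKM in young, with overlapping groups. Uqcrc1 (chr9:108936633-108949623, plus strand), a core protein, had 26.7, 26.6 and 24.6 RPKM in old and 18.2, 23.1 and 24.1 RPKM in young. It was higher in 3 of 3 old libraries, but its log2 fold change of 0.25 ± 0.12 did not pass (SE, limma adjusted p = 0.581). The core subunit Cyc1, cytochrome c1, falls outside the symbol rule and had 23.0, 22.1 and 22.5 RPKM in old and 18.4, 17.4 and 19.3 RPKM in young. Its groups did not overlap, and the log2 fold change of 0.28 ± 0.08 (SE) did not pass (limma adjusted p = 0.243).

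Complex IV, cytochrome c oxidase, has subunits that come in tissue or condition isoforms, and 1 isoform of most pairs dominated. Cox4i1, the general form of subunit 4, had 142, 141 and 134 RPKM in old and 188, 103 and 115 RPKM in young. Cox4i2, the form of lung and low oxygen, had 0 to 5 reads in any library. Cox6b1 averaged 76.9 ± 2.82 RPKM in old and 74.5 ± 19.7 RPKM in young (SD, n = 3 each), while the testis form Cox6b2 had 0 to 6 reads. In both pairs the general form held nearly all of the transcripts in every library.

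Subunit 7a showed the same choice, with the heart and muscle form Cox7a1 at 1 to 8 reads in any library. Cox7a2 averaged 15.2 ± 0.629 RPKM in old and 15.7 ± 3.96 RPKM in young, and Cox7a2l, which helps join complexes into supercomplexes, 84.6 ± 2.42 and 95.5 ± 32.3 RPKM (SD, n = 3 each, old and young in that order). Cox7b2 had 0 to 2 reads in any library. If reads were independent, a count of 0 would allow up to 3 reads, which is 0.0355 to 0.0462 RPKM for a gene of 1 kilobase. This limit covers counting error only and may be too low, since reads were not independent molecules.

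Cox6a2, the heart and skeletal muscle form of subunit 6a, was the exception, with 176 to 232 reads per library. It had 4.04, 4.03 and 3.21 RPKM in old and 4.35, 3.94 and 3.72 RPKM in young, against 44.9, 52.6 and 42.8 RPKM in old and 57.7, 34.2 and 43.7 RPKM in young for the general form Cox6a1. The groups overlapped in both genes. Of 7 striated muscle markers only Actn3 passed the filter, and the 7 summed to 1.77 to 2.29 RPKM in old and 2.01 to 2.77 RPKM in young; their part in the Cox6a2 level was not tested.

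Cox5b, which binds zinc at the matrix side, was the most abundant nuclear gene of complex IV, at 278, 340.1 and 272 RPKM in old and 333, 239 and 286 RPKM in young. Cox8a, a small membrane subunit, had the smallest p in the complex, at 50.4, 59.6 and 54.3 RPKM in old and 46.7, 47.5 and 50.2 RPKM in young, and 3 of 3 old libraries were above all young ones. Its log2 fold change was 0.18 ± 0.10 (SE, limma adjusted p = 0.624). Ndufa4, once placed in complex I and now counted in complex IV, had 49.98, 46.0 and 46.9 RPKM in old and 55.0, 38.5 and 37.8 RPKM in young. Its low-oxygen relative Ndufa4l2 had 0 to 8 reads in any library.

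Complex V, the ATP synthase, was led by Atp5h, a peripheral stalk subunit (chr11:115415689-115419962, minus strand). Atp5h had 408, 405 and 377 RPKM in old replicates 1 to 3, against 655, 315 and 333 RPKM in young replicates 1 to 3. Its old libraries lay between young replicate 1 and the other young ones, and 14.6% of its 75-base stretches recur in the predicted gene Gm10250.

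The ring of c subunits, through which protons pass, is encoded by 3 genes that give the same mature protein. Atp5g3 had the highest level per length of the 3, at 27.6, 31.3 and 26.2 RPKM in old and 30.7, 24.2 and 27.2 RPKM in young. Atp5g2 had 10.7, 12.1 and 11.3 RPKM in old and 23.7, 10.8 and 11.7 RPKM in young, with 35.8% of its 75-base stretches found again in Gm10175. Atp5g1 was lowest at 5.02, 5.07 and 4.60 RPKM in old and 5.51, 3.68 and 3.54 RPKM in young. This order in RPKM held in all 6 libraries. For Atp5g1 and Atp5g2 it rests on the deposited lengths in old and in young replicate 2. The deposited length of Atp5g1 is 4912 bases, against 596 for its coding transcript. Atp5g1 had 2084, 1880.0 and 1825 reads in old, above the 1518, 1524 and 1528 reads of Atp5g2. In young replicates 1 to 3 Atp5g1 had 1756, 1402 and 1443 reads, against 2579, 1399 and 1627 for Atp5g2.

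Atp5s, the gene of coupling factor B, was the gene of smallest p among the 87 members tested. It had 1.16, 0.714 and 1.14 RPKM in old and 1.91, 1.63 and 1.45 RPKM in young, and 80 to 145 reads in old against 179 to 188 in young. Its log2 fold change was -0.42 ± 0.12, lower in 3 of 3 old libraries, and it did not pass (SE, limma adjusted p = 0.257). Atp5sl was at 0.607 to 0.764 RPKM in old and 0.480 to 0.587 RPKM in young, under the filter, and was not tested.

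**Figure D3:**
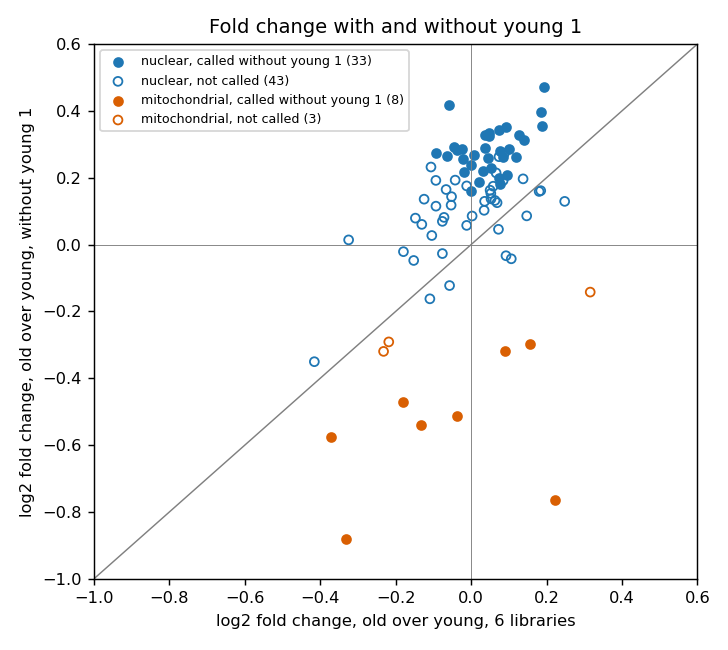
log2 fold change of old over young on the log2(RPKM + 1) scale with all 6 libraries (horizontal axis) and without young replicate 1 (vertical axis) for 76 nuclear (blue) and 11 mitochondrial (orange) genes. Filled points passed an adjusted p under 0.05 without that library (33 nuclear and 8 mitochondrial), and the grey diagonal marks equal values.

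Young replicate 1 was the highest of the 6 libraries in 64 of the 76 nuclear genes, beside 28.8% of all tested genes, and the lowest in 8, beside 48.2%. The median gap to young replicates 2 and 3 was 0.52 on the log2(RPKM + 1) scale. In 51 of the 76 genes all 3 old libraries lay below young replicate 1 and above both other young libraries, an order found in 10.7% of all tested genes. Old libraries were above young replicates 2 and 3 without overlap in 57 of 76, beside 23.7%, and below them in 4, beside 38.8%.

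Without young replicate 1, 33 of the 76 nuclear genes were called higher in old and 0 lower, beside 13.2% and 19.4% of all tested genes. The median log2 fold change was 0.19, against -0.05 over all genes, and 68 of 76 were positive. By complex, 15 of 35 rose in complex I, 2 of 4 in complex II, 3 of 8 in complex III, 5 of 13 in complex IV and 8 of 16 in complex V. The largest change was in Uqcrq, a small ubiquinone-binding subunit of complex III named after its values were seen. It had 46.0, 46.4 and 42.8 RPKM in old and 31.6 and 32.8 RPKM in young replicates 2 and 3, and its log2 fold change was 0.47 (limma adjusted p = 0.00274). Young replicate 1 had 58.3 RPKM and stood above all of them.

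Among the members given by library under each complex above, those that rose without young replicate 1 were Sdhb and Sdhd, Cox4i1 and Cox6b1, Ndufa4, Atp5h and Atp5g1. Their log2 fold changes were 0.26 to 0.35, and their limma adjusted p-values 0.00895 to 0.0269. Ndufa12, Ndufv3, Uqcrh, Cox5b, Cox6a1, Cox6a2, Cox7a2, Cox7a2l, Sdha, Sdhc, Atp5g2 and Atp5g3 did not pass, and neither did Atp5b, Atp5j, Uqcrc1, Uqcrc2, Cox8a or Atp5s, the tested members whose groups did not overlap with all 6 libraries. Cyc1, outside the symbol rule, did pass (limma adjusted p = 0.0151). Leaving out any other single library called 0 nuclear and 0 mitochondrial genes in either direction.

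The balance of the 2 genomes within a library gave the widest contrast among the young libraries themselves. The summed RPKM of the 13 mitochondrial rows over that of the 82 nuclear rows was 2.60, 2.47 and 3.10 in old replicates 1 to 3, against 1.39, 4.07 and 4.05 in young replicates 1 to 3. On the log2 scale the ratio averaged 1.44 ± 0.17 in old and 1.51 ± 0.90 in young (SD, n = 3 each), a difference of -0.07, and -0.59 without young replicate 1. With the copies the difference of the means was 0.03. The old libraries lay between young replicate 1 and the other young libraries, and no test was made because the members were chosen with results known.

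**Figure D4:**
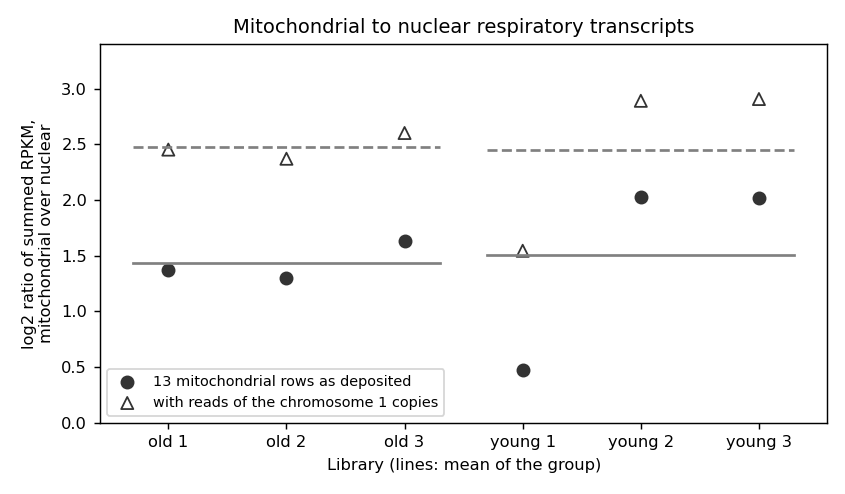
log2 ratio of summed RPKM of the mitochondrial genes to that of the nuclear genes in each library, from the rows as deposited (circles) and with the reads of the chromosome 1 copies (triangles), old libraries left of young. Grey lines are group means (solid for the deposited rows, dashed with the copies); the ratios of young replicate 1 are the lowest of both series.

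The 2 sums moved in opposite directions in young replicate 1. The nuclear sum was 6118, 6173 and 5869 RPKM in old and 7497, 5088 and 5476 RPKM in young. The mitochondrial sum was 15874, 15223 and 18176 RPKM in old and 10394, 20730.4 and 22158 RPKM in young. With the reads of the chromosome 1 copies the ratio was 5.47, 5.17 and 6.07 in old and 2.92, 7.41 and 7.50 in young, so the order of the libraries was nearly kept at a higher level. As a share of all reads, the 13 mitochondrial rows took 1.65, 1.58 and 1.85% in old, against 1.03, 2.08 and 2.25% in young, and the chromosome 1 copies 1.24, 1.17 and 1.23% in old, against 0.819, 1.19 and 1.33% in young. The nuclear subunits took 0.969 to 1.02% in old, against 1.17, 0.862 and 0.910% in young.

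The offset of young replicate 1 went with the coding length of the nuclear genes. In 44 of 46 tested genes with under 500 coding bases it was above the mean of young replicates 2 and 3, and the median difference was 0.56 on the log2(RPKM + 1) scale. In 19 genes of 500 up to 1000 bases it was above in all 19, and the median was 0.62. In 11 genes of 1000 bases or more it was above in 4, with a median of -0.16. Across the 76 genes, the offset correlated with the log2 of coding length at a Pearson r of -0.50 and a Spearman rho of -0.32. These genes share libraries and are not independent replicates.

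**Figure D5:**
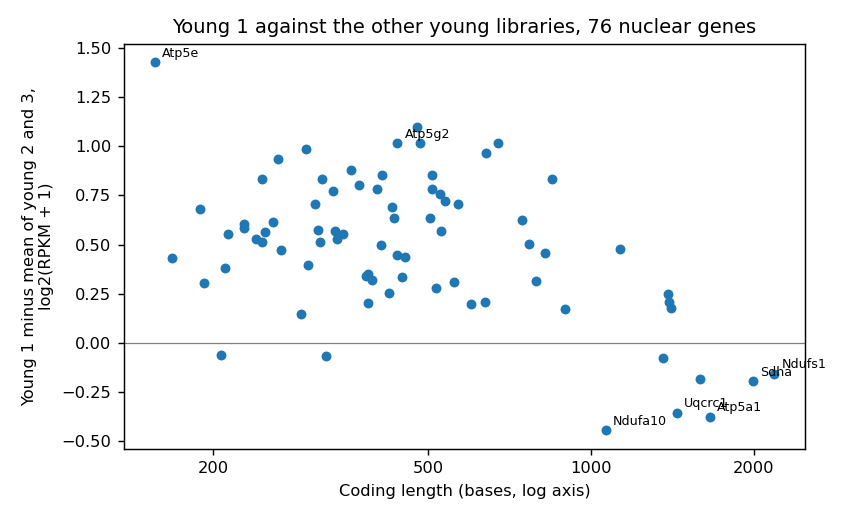
Difference of young replicate 1 from the mean of young replicates 2 and 3 in log2(RPKM + 1) against the coding length in bases (log axis) for 76 nuclear genes, 1 point per gene. The 11 genes of 1000 bases or more have a median of -0.16, and the 46 genes under 500 bases a median of 0.56.

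The same length dependence accompanied the fold change without young replicate 1, whose Pearson r with log2 coding length was -0.46 across the 76 genes. Of the 33 genes that rose without that library, 23 were among the 46 tested genes under 500 coding bases. Another 9 were among the 19 of 500 up to 1000, and 1 was among the 11 of 1000 or more. The shorter groups thus had similar shares, and the contrast rests on the 11 longest genes. With all 6 libraries the fold change had an r of -0.02 with log2 coding length. The offset of young replicate 1 had an r of only -0.205 with the log2 of the deposited gene length. With all 6 libraries, removing each library's trend on that deposited length left 0 nuclear and 0 mitochondrial calls. The shares of all genes were then 1.82% higher and 0.366% lower. Since 0 members were called before this step, it cannot bear on the dependence on coding length. Cytosolic ribosomal protein genes, short and abundant, moved in the same way: 74 of 79 rose without young replicate 1, beside 13.2% of all tested genes, and 0 did with it, beside 1.47%. The part of RNA quality or of that library's preparation in these values was not tested.

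Promoters of the nuclear genes are shown as description, and their part in the values above was not tested. RefSeq promoters (GRCm38.p6, 250 bases before to 50 after the start) matched 68 of the 82 nuclear genes by symbol or synonym. They were searched on both strands for GCGC and TGCGC with 1 base of any kind between them, the motif of nuclear respiratory factor 1, CCGGAAG, an ETS motif of the kind bound by the nuclear respiratory factor 2, AAGATGGC, a YY1 motif, and TNAAGGTCA, the motif of estrogen-related receptors. Capitals mark matches in the 250 bases upstream of the RefSeq start. The gene shown is the most abundant tested gene with each motif other than YY1, for which no promoter is shown, a gene being shown only once. The deposited rows of Atp5h and Ndufb4 end at chr11:115419962 and chr16:37654453, inside the printed stretches. Some of their matches therefore lie within the deposited genes.
Atp5h, chr11:115419920-115420169, minus strand: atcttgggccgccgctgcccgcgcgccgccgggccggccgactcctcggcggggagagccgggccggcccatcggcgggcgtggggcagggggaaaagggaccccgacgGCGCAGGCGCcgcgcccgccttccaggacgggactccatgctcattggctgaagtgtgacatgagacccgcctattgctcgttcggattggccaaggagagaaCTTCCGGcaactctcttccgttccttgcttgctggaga
Uqcrh, chr4:116075071-116075320, minus strand: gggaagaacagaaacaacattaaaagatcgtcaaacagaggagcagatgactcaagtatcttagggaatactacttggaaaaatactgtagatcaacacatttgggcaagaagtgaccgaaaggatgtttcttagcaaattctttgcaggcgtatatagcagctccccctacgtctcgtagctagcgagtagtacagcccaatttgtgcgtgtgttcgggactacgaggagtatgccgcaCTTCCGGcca
Ndufb4, chr16:37654369-37654618, minus strand: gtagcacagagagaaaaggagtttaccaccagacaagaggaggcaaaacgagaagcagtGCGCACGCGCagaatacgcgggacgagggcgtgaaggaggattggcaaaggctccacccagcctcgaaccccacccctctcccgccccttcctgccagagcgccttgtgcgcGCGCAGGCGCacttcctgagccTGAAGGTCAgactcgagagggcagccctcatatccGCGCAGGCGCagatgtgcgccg
In Atp5h the first capitals are a match of nuclear respiratory factor 1 and the second of ETS, and in Uqcrh they are an ETS match. In Ndufb4 they are 3 matches of nuclear respiratory factor 1 and 1 of estrogen-related receptors.

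The motif of nuclear respiratory factor 1 occurred in 23.5% of the 68 promoters, against 4.78% of all 27025 promoters and 11.6% of those of tested genes. The YY1 motif occurred in 14.7%, against 2.88% of all and 5.50% of those of tested genes, and the estrogen-related receptor motif in 4.41%, against 1.26% and 0.666%. The ETS motif, at 22.1%, was near the 20.4% of tested genes and above the 9.12% of all promoters. Among tested members with a promoter, the motif of nuclear respiratory factor 1 was in 6 of the 27 that rose without young replicate 1 and in 10 of the 37 that did not. The ETS motif was in 9 of the 27 and 6 of the 37, the YY1 motif in 6 and 3, and the estrogen-related receptor motif in 1 and 2, with no test made. These matches describe letters and not binding.

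Genes that build, feed or express the chain were counted in 13 lists, and 0 genes of any list were called in either direction by limma with all 6 libraries, beside 1.47% of all tested genes higher and 0.0999% lower. At an unadjusted p under 0.05 the lists held 3 of 78 mitochondrial ribosomal proteins, and 0 or 1 gene in each other list, against 11.2% of all genes. The gene nearest to a call was Pnpt1, the polynucleotide phosphorylase that degrades and imports mitochondrial RNA. It had 18.7, 17.0 and 19.4 RPKM in old replicates 1 to 3, against 10.4, 12.9 and 12.1 RPKM in young replicates 1 to 3. Its groups did not overlap, and its log2 fold change was 0.60 ± 0.11 (SE, limma adjusted p = 0.0698).

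Mterf4, which guides assembly of the mitochondrial ribosome, had 10.4, 11.7 and 11.4 RPKM in old and 14.4, 18.8 and 23.9 RPKM in young. All old libraries were below all young ones, and the log2 fold change of -0.69 ± 0.18 (SE) did not pass (limma adjusted p = 0.193). The main mitochondrial transcription factor Tfam had 13.1, 12.8 and 13.2 RPKM in old and 18.2, 13.1 and 12.6 RPKM in young, and its groups overlapped. Pnpt1 rose and Mterf4 fell without young replicate 1 (limma adjusted p = 0.00434 and 0.00284).

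In each remaining list the gene of smallest p also missed the threshold. These were the complex I assembly factor Tmem126b, at -0.28 on the log2 scale (limma adjusted p = 0.435), the complex III chaperone Bcs1l at -0.17, the copper chaperone Sco1 at 0.12 and the complex V assembly factor Tmem70 at -0.05. The ubiquinone enzyme Coq6 was at 0.13, the mitochondrial topoisomerase Top1mt at 0.22, the regulator Nrf1 at -0.18, the ribosomal protein Mrps18a at 0.26, the import pore Tomm40 at 0.21 and the ADP/ATP carrier Slc25a4 at -0.16. Their limma adjusted p-values were 0.385 to 0.987, and the groups did not overlap in Tmem126b, Coq6, Mrps18a and Tomm40.

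Without young replicate 1, 24 of 78 mitochondrial ribosomal proteins rose and 0 fell, and 12 of 23 import components rose and 0 fell, beside 13.2% of all tested genes higher and 19.4% lower. Of the assembly factors, 1 of 14 rose and 0 fell for complex I, and 2 of 20 rose and 1 fell for complex IV, with 0 called for complexes II and III or V. Of 17 genes of mitochondrial RNA processing 5 rose and 0 fell, and of 6 electron carriers and further subunits 3 rose and 1 fell. Of 9 nuclear regulators 0 rose and 2 fell, and of 8 mitochondrial transcription genes 0 rose and 1 fell. These counts are too small to set apart from the shares of all tested genes. In the lists of ubiquinone synthesis, DNA maintenance and carriers 1 gene each rose and 0 fell. The coactivator Ppargc1a, a regulator of mitochondrial biogenesis, stood at 0.0188 to 0.0215 RPKM in old and 0.00782 to 0.0281 RPKM in young and was not tested.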

How the data were processed

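Per the submitters' processing notes, reads were handled with fastp, STAR, HTSeq and edgeR on the mouse build mm10; settings, versions, annotation and use of strand are not stated there. The authors deposited RPKM for 29587 gene rows in 6 libraries, with exon positions and gene lengths. Multiplied by length and scaled, 100.0% of the RPKM values were whole reads within a tolerance of 0.01, giving the depths printed above. Among genes with 1 to 5 reads 77.5 to 79.3% had an even number, so reads are not independent molecules and limits cover counting error only.

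Old was compared with young by limma (version 3.58.1, R version 4.3.3) on log2(RPKM + 1) values of all 6 libraries, with a variance trend and no covariate, over 12015 genes with at least 1 RPKM in at least 3 libraries. Tests were two-sided, adjusted by Benjamini-Hochberg over all tested genes and called under 0.05. Fold changes are old over young and understate low genes. The script was tested on simulated data. The members and lists were chosen with earlier results of these data known, and Ndufa4 was counted with complex IV.

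Genes named in the text were every mitochondrial gene, per complex the nuclear gene of smallest p and of highest mean, all Sdh genes, isoform groups, members under the filter, and per other list the called genes or else the 1 of smallest p; others are said to be chosen later or serve as background. Cox8b is not analysed here. The 75-base stretches, coding lengths and alignments came from GENCODE transcripts on GRCm38 (Biopython 1.88); 78 of 95 rows have the same start and end there. Sequence stretches are from GENCODE and promoters from RefSeq. Of the nuclear genes, 10 share at least 10% of their 75-base stretches with another gene and 6 overlap another gene by as much.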

Additional observations from a re-analysis of the deposited data

How the results depend on the processing

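With all 6 libraries, 0 nuclear and 0 mitochondrial genes were called in either direction under every alternative run: pseudocounts of 0.1 and 0.5, no filter, a higher filter at a mean of 5 RPKM, 4 other scalings, no variance trend, voom on recovered reads, removal of the gene length trend, an adjusted p under 0.1, and added reads of the chromosome 1 copies. The fit with the replicate number as a block also called 0 and 0. Deviations of same-numbered libraries correlated at r of -0.03, -0.44 and 0.33, and those of differently numbered ones at -0.42 to 0.43. These values cannot show whether libraries were prepared in numbered pairs, and the labels do not say. Over all genes the block gave 82 higher and 0 lower, against 177 and 12.

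Leaving out 1 library gave 0 to 33 nuclear genes higher and 0 to 8 mitochondrial genes lower, with counts above 0 only without young replicate 1, and 33 and 7 there when the copies were added too. The difference of the log2 ratio was -0.59 to 0.19. With all libraries it was -0.07, and turned to 0.028 with the copies and to 0.010 under quantile normalization. The median of the nuclear genes, 0.04, turned to -0.0051 with the gene length trend removed. Among the named genes tested, and other than by leaving out a library, the log2 fold change turned sign in Ndufa12, to -0.022 under quantile normalization, and in mt-Atp6, to 0.31 with the copies and 0.049 with them and without young replicate 1. Without young replicate 1 mt-Co1 was at -0.26 with the copies. The cause of these turns was not tested.

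Over the 6 omissions the log2 fold change of these named genes changed sign at least once, in most cases on leaving out a young library. In complexes I and II it was -0.037 to 0.16 for Ndufa12, -0.12 to 0.0077 for Sdha, -0.19 to 0.26 for Sdhb, -0.26 to 0.19 for Sdhc and -0.31 to 0.27 for Sdhd. In complex IV it was -0.079 to 0.35 for Cox4i1, -0.065 to 0.17 for Cox5b, -0.11 to 0.26 for Cox6a1, -0.12 to 0.010 for Cox6a2, -0.045 to 0.28 for Cox6b1, -0.12 to 0.18 for Cox7a2 and -0.27 to 0.14 for Cox7a2l. In complex V it was -0.52 to 0.014 for Atp5g2, -0.031 to 0.14 for Atp5g3 and -0.24 to 0.29 for Atp5h. Among mitochondrial genes it was -0.54 to 0.10 for mt-Atp6, -0.88 to 0.031 for mt-Atp8, -0.30 to 0.38 for mt-Co1, -0.14 to 0.59 for mt-Cytb, -0.47 to 0.033 for mt-Nd2, -0.32 to 0.33 for mt-Nd4, -0.76 to 0.77 for mt-Nd4l and -0.51 to 0.23 for mt-Nd5. The rows of mt-Co2, mt-Co3, mt-Atp6 and mt-Atp8 held at most 112 reads at full library depth, and for the first 3 the reads lay on the copies. Whether reads of mt-Atp8 were also placed in the chromosome 1 block was not tested.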
